A study of Mus musculus with 4 samples.

Results

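Unassigned intergenic transcript loci are stretches of the mouse genome whose 1 kb bin overlaps no gene of the GENCODE annotation but to which cDNA reads were counted. They were taken from a table of 255164 isoforms, of which 208527 named a chromosome position in place of a gene. The reads were long reads of cDNA amplified by PCR and sequenced on Nanopore flow cells. An isoform was kept when the 1 kb bin at its position overlapped no GENCODE M21 gene (GRCm38) and when it held 10 or more reads summed over the 4 libraries. This left 7565 isoforms at 7274 loci, out of 184078 positions with an unassigned isoform and 27363 such positions outside genes. Isoforms of the same bin were summed as 1 locus. A single isoform made up 6999 loci, and 275 loci had between 2 and 4. The loci were thus chosen by their summed reads, and totals are given as a description only. Just inside the threshold, 643 isoforms had 10 reads, on average 1.68, 2.87, 2.88 and 2.58 in the 4 libraries. Just outside it, 743 had 9 reads, on average 1.56, 2.54, 2.66 and 2.24.

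The libraries came from neural stem cells, the dividing cells of the embryonic neocortex that give rise to neurons and glia, and there was 1 library per group. Floxed cells received lipid nanoparticles (LNP), either empty or carrying mRNA for the Cre recombinase, which cuts out the floxed exons. The control was Tut1f/f with empty LNP. The 3 other libraries had 3 days with Cre mRNA, and floxed alleles of Tut1 alone (Tut1f/f;Cre), of Trp53 alone (Trp53f/f;Cre) or of both genes (Tut1f/f;Trp53f/f;Cre) by their labels. Tut1 encodes a terminal uridylyltransferase that extends the end of U6 snRNA, an RNA of the spliceosome, and Trp53 encodes the p53 tumour suppressor. The design asks whether losing Tut1 changes the transcripts a cell makes. No difference below has a replicate check, and the labels do not say how many animals or cultures fed a library. Intervals are 95% intervals of the counting error alone, since PCR copies of 1 molecule were not told apart.

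Tut1 had 37 reads in the control and 11 in Tut1f/f;Cre. The library with the Trp53f/f;Cre label had 14, and the one with both floxed genes had 27. These reads are of the whole gene, of which loxP sites flank exon 2 alone, and mRNA without that exon is still counted, so they do not check the deletion. The last 2 values ran against the order of the labels, which such reads cannot settle. These libraries are called below the Trp53-labelled and the double-labelled library, and every direction that involves them rests on their labels. Trp53 had 175, 67, 10 and 19 reads in the same order, lowest in the libraries with Trp53 in their label. All 8 neural stem cell markers (Nes, Sox2, Pax6, Vim, Fabp7, Hes1, Hes5 and Sox9) were detected in each library, and none of 4 microglial markers was. The summed level of the stem cell markers ran from 11493 to 12851 reads per 1e6 gene reads (CPM, with gene totals scaled by the TMM method), of which Fabp7 made up 9542 to 11181 CPM. Among the others Hes1 had 149 CPM in the control and 444 to 501 elsewhere, while Vim had 1261 and 611 to 761. These levels stood against 18.7 to 27.3 CPM for 5 neuronal markers, of which Rbfox3 was at 0, 7.01 to 49.4 CPM for 4 astrocyte markers, of which Gfap was at 0, and 351 to 687 CPM for 5 oligodendroglial markers. Xist, the RNA that coats the inactive X chromosome, had 0, 44, 49 and 0 reads. The Y-linked genes Ddx3y, Kdm5d, Eif2s3y and Uty had 28 to 155 reads in the control and 42 to 96 in the double-labelled library, and 0 in the other two. The sex of the cells thus differed between libraries, and its part in the differences below was not tested. The libraries held 5125888, 4253498, 4830314 and 3936827 reads, of which 17.2%, 30.2%, 28.9% and 27.3% named no gene.

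Reads outside annotated genes have several known origins. RNA polymerase II runs past the cleavage site of a gene before it stops, many promoters also fire away from their gene, and annotations omit some exons, late 3′ ends and noncoding RNAs. Processed pseudogenes, which are reinserted copies of mRNAs, can share reads with their parent gene. None of these origins was assigned to a locus here. The position in an isoform's name was read as the left end of its bin, which the sources used here do not state. Read so, and if unspliced, the longest segment of 378 loci would reach into the gene to their right.

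Some loci held the start of a gene that RefSeq annotates and GENCODE M21 lacks or starts elsewhere. Of 32851 RefSeq promoter windows (250 bases before to 50 after a gene's start, GRCm38.p6), 41 lay wholly inside 39 loci. The window of the locus with most reads among these is shown first, followed by the windows of loci that lay beside the 5′ ends of Cdk12, a kinase of RNA polymerase II, and Tshz2, a zinc finger transcription factor. Windows are printed 5′ to 3′ on the strand of the gene, and capitals mark a CCAAT box, or a GC box of the letters GGGCGG, on either strand.
Gm41874, chr19:57404215-57404514, plus strand: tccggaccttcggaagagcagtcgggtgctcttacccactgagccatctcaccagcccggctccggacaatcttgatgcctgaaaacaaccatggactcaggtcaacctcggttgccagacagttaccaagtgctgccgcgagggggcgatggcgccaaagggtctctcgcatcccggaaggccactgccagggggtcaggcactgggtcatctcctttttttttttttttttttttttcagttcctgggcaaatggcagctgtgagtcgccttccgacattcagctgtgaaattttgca
Gm38963, chr11:98202581-98202880, minus strand: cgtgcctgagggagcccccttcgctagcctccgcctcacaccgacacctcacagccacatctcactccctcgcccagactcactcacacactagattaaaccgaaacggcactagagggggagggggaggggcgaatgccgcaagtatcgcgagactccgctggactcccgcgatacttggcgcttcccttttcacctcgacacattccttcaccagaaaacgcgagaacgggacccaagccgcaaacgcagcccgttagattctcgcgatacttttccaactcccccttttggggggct
Tshz2, chr2:169632259-169632558, plus strand: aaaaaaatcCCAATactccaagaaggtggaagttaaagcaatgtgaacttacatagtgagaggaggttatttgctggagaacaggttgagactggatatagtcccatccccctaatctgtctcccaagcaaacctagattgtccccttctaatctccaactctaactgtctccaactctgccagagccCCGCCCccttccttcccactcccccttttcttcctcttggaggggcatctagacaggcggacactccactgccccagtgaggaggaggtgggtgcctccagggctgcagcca

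The locus that held the Gm41874 window had 242 reads in the control, 362 in Tut1f/f;Cre, 349 in the Trp53-labelled and 305 in the double-labelled library. Its log2 ratios to the control were 0.98 (0.74 to 1.22), 0.75 (0.51 to 0.99) and 0.74 (0.49 to 0.99) of scaled CPM. The Gm38963 locus ended 60 bases from the 5′ end of Cdk12, on the opposite strand by its RefSeq gene, and had 57, 161, 173 and 119 reads. The control was lowest there, with ratios of 1.90 (1.46 to 2.36), 1.82 (1.38 to 2.28) and 1.47 (1.004 to 1.95). The Tshz2 locus ended 14 bases from the GENCODE start of Tshz2 and had 57, 101, 161 and 118 reads, or ratios of 1.23 (0.75 to 1.72), 1.72 (1.27 to 2.18) and 1.46 (0.99 to 1.94). Not every such locus was above the control. The locus of the Gm27204 window had 120, 86, 152 and 102 reads and a ratio of -0.08 (-0.49 to 0.33) in Tut1f/f;Cre, and that of the Gm41447 window had 46, 9, 23 and 11 and a ratio of -1.95 (-3.17 to -0.90). The TATA box motif, the CCAAT box and the GC box (letters below), none of which can lie within another, were searched on both strands. TATAAA stood in 2 of the 41 windows (4.88%) against 13.6% of all 32851, CCAAT in 19 (46.3%) against 37.4%, and GGGCGG in 4 (9.76%) against 35.7%. The median GC content was 48.3% in the 41 windows and 52.7% in all.

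Loci lay close to genes. The median distance from a bin to the nearest gene end was 4165.5 bases, against 20500 for all 1404156 gene-free 1 kb bins of the same chromosomes. Within 5 kb of a gene were 3992 loci (54.9%), against 19.3% of gene-free bins, and within 1000 bases 1448 (19.9%) against 4.64%. The nearest gene end was a 3′ end for 60.3% of loci and 51.3% of bins. That share was 67.3% within 1000 bases and fell to 52.9% between 10 and 50 kb, with 57.6% beyond that, while among bins it stayed between 50.3% and 52.0% in every class. The nearest gene was protein coding for 4495 loci (61.8%), a processed pseudogene for 1114 (15.3%) and a lincRNA for 689 (9.47%).

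**Figure D1:**
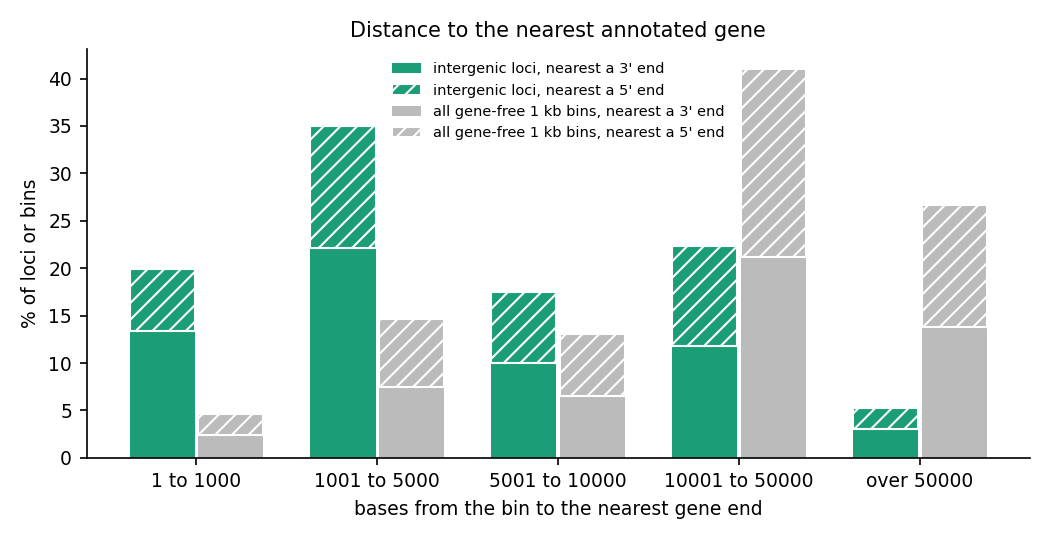
Share of loci and of all gene-free 1 kb bins (percent, y axis) by distance in bases to the nearest GENCODE gene (x axis), with solid bars for a nearest 3′ end and hatched bars for a 5′ end. Loci take 54.9% of their number from the first 2 classes and bins 19.3%.

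RefSeq placed a gene over 1496 loci (20.6%), against 9.43% of gene-free bins. The gene listed first was protein coding at 729 of these loci, a lncRNA at 613 and a pseudogene at 119, so some loci are genes or gene ends that another annotation holds. Chromosome 11 had the most loci for its gene-free length (10.01 per 1000 gene-free bins), followed by chromosome 19 (7.91), against 5.18 over the genome. The sex chromosomes had the fewest, with 3.05 on X and 0.0857 on Y, where there were 7 loci.

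Isoforms that no gene could be given were named by a read and by a pair of numbers. These have the form in which trimmed reads are written with the first and last base of the segment kept, which the sources do not state, and their difference is called here the segment length. Among 18013 read-named isoforms of annotated genes, 88.4% of segments were no longer than the gene's longest transcript, and the lengths were weakly related across isoforms (Pearson's r 0.26, Spearman's coefficient 0.34). The isoforms of the intergenic loci fell into a short and a long class. Their median segment was 1063 bases, 35.2% were under 500 bases and 22.3% were from 150 to under 250 bases long. Unassigned isoforms inside genes had a median of 1935 bases with 4.61% under 500, and read-named isoforms of genes had 1539 bases with 3.44% under 500. The short class was least common just past 3′ ends. It made up 14.5% of isoforms within 1000 bases of a 3′ end and 37.6% within 1000 bases of a 5′ end, and 59.3% at 10 to 50 kb from a 5′ end. The 500-base division was chosen after the lengths were seen.

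**Figure D2:**
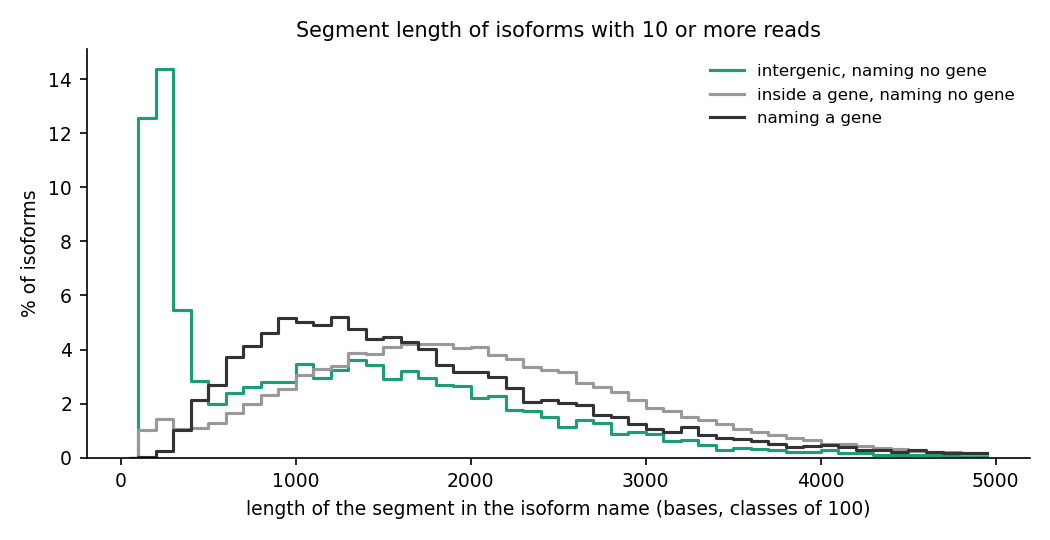
Share of isoforms (percent, y axis) by segment length in classes of 100 bases (x axis, up to 5000) for isoforms with 10 or more reads that are intergenic, inside a gene but without a gene name, or named for a gene. The intergenic isoforms have a peak at 100 to 300 bases, with 14.4% in the class from 200 bases against 1.45% of unassigned isoforms inside genes.

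Reads were spread very unevenly over loci. A locus had a median of 21 reads (quartiles 13 and 41), 1487 loci had 50 or more, 669 had 100 or more and 36 had 1000 or more. Of all 609253 reads the 10 loci with most reads took 40.0%, and the first took 22.2%. This was the bin chr11:109011000-109011999, 2219 bases past the 3′ end of the processed pseudogene Gm11668 and inside the RefSeq gene Gm36876. It had 81373 reads in the control, 21782 in Tut1f/f;Cre, 22100 in the Trp53-labelled and 10083 in the double-labelled library. The control was highest and the double-labelled library lowest, with log2 ratios to the control of -1.50 (-1.52 to -1.48), -1.66 (-1.68 to -1.64) and -2.60 (-2.63 to -2.57). The ribosomal RNA gene CT010467.1 had the same order, with 15.5%, 6.81%, 6.33% and 3.97% of a library's reads and ratios of -1.05, -1.16 and -1.93, and its part in the value of this locus was not tested.

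The locus chr3:5860000-5860999 had the same order of libraries, with 14200, 6658, 6826 and 3884 reads and ratios to the control of -0.69 (-0.73 to -0.65), -0.84 (-0.88 to -0.80) and -1.46 (-1.51 to -1.41). It lay 19833 bases from its nearest gene, the lincRNA Gm37350. The control was also highest at chr15:86194000-86194999 near Gm15569, with 2258, 1027, 1405 and 592 reads. At the other 7 it was not. The bin chr15:102634000-102634999 lies 39 bases from GENCODE Rpl39-ps, a pseudogene of a ribosomal protein gene, and RefSeq places that gene over it. It had 9149, 7608, 11456 and 6555 reads and was highest in the Trp53-labelled library (ratio to the control 0.54, 0.50 to 0.58). The bin chr12:97061000-97061999, 36707 bases from the lincRNA Gm47397, had 1040, 2123, 2104 and 1884 reads, and was the only one of the 10 above the control at least 2-fold in all libraries with Cre mRNA (1.43, 1.24 and 1.27).

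A pair of the 10 lay past protein-coding genes. At chr5:146332000-146332999, 29126 bases past the 3′ end of Cdk8, a kinase of the Mediator complex, there were 1907, 1860, 2271 and 1970 reads, while Cdk8 itself had 37 to 63. At chr9:78476000-78476999, 652 bases past the 3′ end of Mto1, which modifies mitochondrial tRNAs, there were 2018, 1474, 2473 and 1820 reads, against 43 to 75 for Mto1. At both bins the reads far outnumbered those of the nearest gene, and whether they came from that gene was not tested. The remaining 3 bins, near the pseudogenes Gm2651, Gm2223 and AC122536.1, had between 714 and 1506 reads in each library. Near the first and second of these the double-labelled library was lowest, with 745 and 768 reads. RefSeq places Gm2223 over the second bin.

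**Figure D3:**
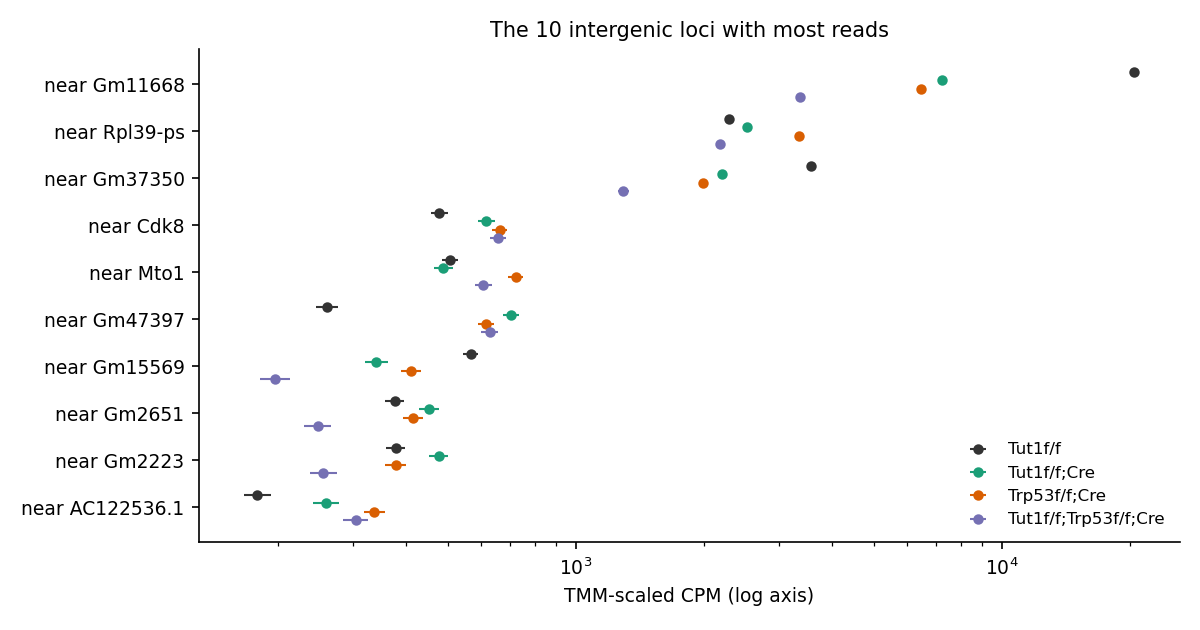
Level of the 10 loci with most reads (TMM-scaled CPM, log x axis) in the 4 libraries, each locus named by its nearest gene, with bars for the exact Poisson 95% interval. The control is highest near Gm11668, Gm37350 and Gm15569 and lowest near Cdk8, Gm47397 and AC122536.1.

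As a share of all reads in a library, the 7274 loci took 3.91% in the control (3.89 to 3.93, Wilson interval), 3.20% in Tut1f/f;Cre, 3.29% in the Trp53-labelled and 2.89% in the double-labelled library. In such bulk libraries fewer cells with a transcript and less of it per cell cannot be told apart. The 10 loci with most reads set that order. They took 2.26%, 1.08%, 1.09% and 0.742%, and the other loci took 1.66%, 2.11%, 2.20% and 2.15%. Summed CPM without the 10 was therefore above the control by log2 ratios of 0.49, 0.55 and 0.40, while with them it was below it by -0.16, -0.12 and -0.41. The 10 were chosen by summed reads and the others passed the 10-read threshold, so these ratios support no difference on their own. Unassigned loci inside genes (64263 with 10 or more reads) moved further, from 12% of control reads to 23.6%, 22.6% and 21.3%.

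**Figure D4:**
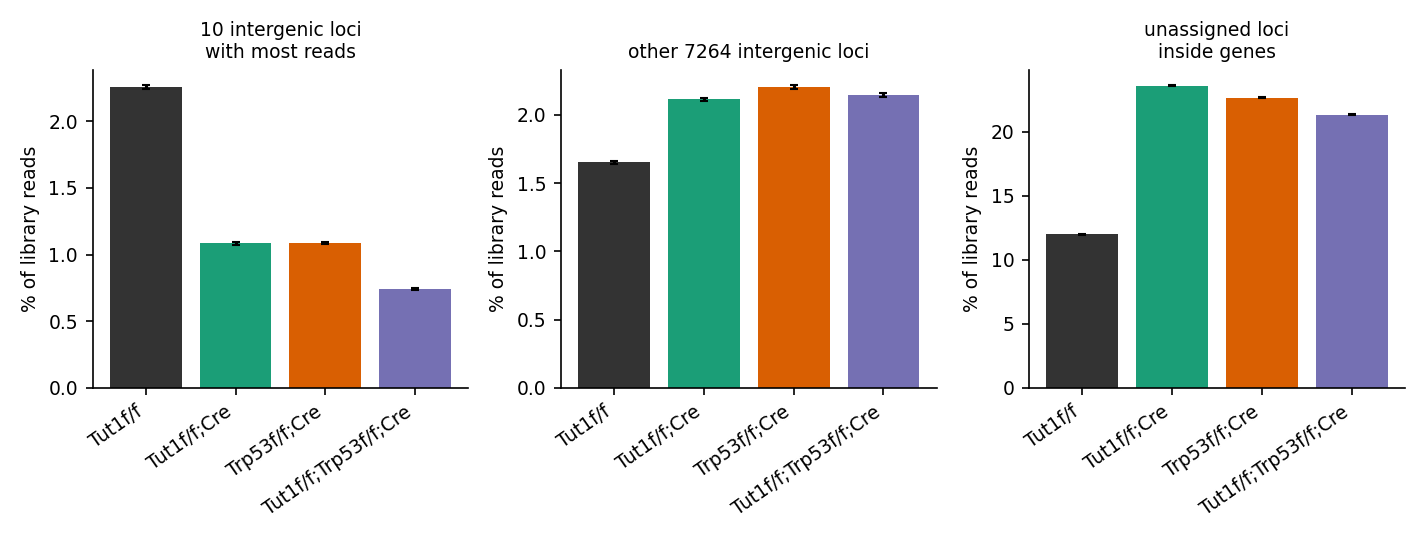
Percent of library reads (y axes, each from 0) in each library (x axis) at the 10 intergenic loci with most reads, at the other intergenic loci and at unassigned loci inside genes, with Wilson 95% intervals. The control is highest in the first panel at 2.26% and lowest in the other two at 1.66% and 12%.

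The control had no read at 807 loci (11.1%), against 107, 91 and 148 in the other libraries, although it was the deepest library. The control likewise had no read at 16.2% of unassigned loci inside genes and at 1.28% of genes. At 773 of the 807 the other libraries all had reads, and none of the 807 held more than 98 reads in total. A count of 0 in the control allows a level of up to 0.752 CPM (3 counts). Of the 7274 loci 6178 were detected in all 4 libraries, 1044 in 3, 47 in 2 and 5 in 1. The 10-read threshold acts on the sum of 4 libraries of which 3 had Cre mRNA, so loci high in those 3 reached it more easily. Counts and medians against the control below therefore describe the loci and support no difference on their own.

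Between Tut1f/f;Cre and the control, 1554 loci were at least 2-fold higher with an interval that excluded no change (21.4%), and 150 were lower (2.06%). Over all 83791 features, which are genes, unassigned loci inside genes and intergenic loci, the same rule counted 33.5% higher and 2.6% lower, and over 12254 genes 12% higher and 12.2% lower. The Trp53-labelled library had 1498 loci higher and 148 lower than the control (all features 31.3% and 2.93%), and the double-labelled library had 1316 higher and 208 lower (25% and 2.67%). The median log2 ratio over loci (0.5 CPM added to each level) was 0.73, 0.74 and 0.64 in the 3 comparisons, against 0.02, 0.04 and -0.02 for genes and 1.30, 1.17 and 1.06 for unassigned loci inside genes. The median of the intergenic loci thus lay between those of genes and of unassigned loci inside genes in each comparison. When all reads set the scale in place of gene reads, the medians were 0.58 in all 3 comparisons and those of genes -0.09, -0.09 and -0.05. Among loci with 50 or more reads, 28.4%, 35.6% and 29.4% were higher than the control (all features 40.3%, 40.7% and 34.4%), against 11.8%, 12.1% and 9.09% of genes, and 4.91%, 4.30% and 7.46% were lower (6.99%, 7.46% and 6.64%). The control was the lowest of the 4 libraries at 60.7% of loci, at 36.2% of genes and at 76.6% of unassigned loci inside genes.

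**Figure D5:**
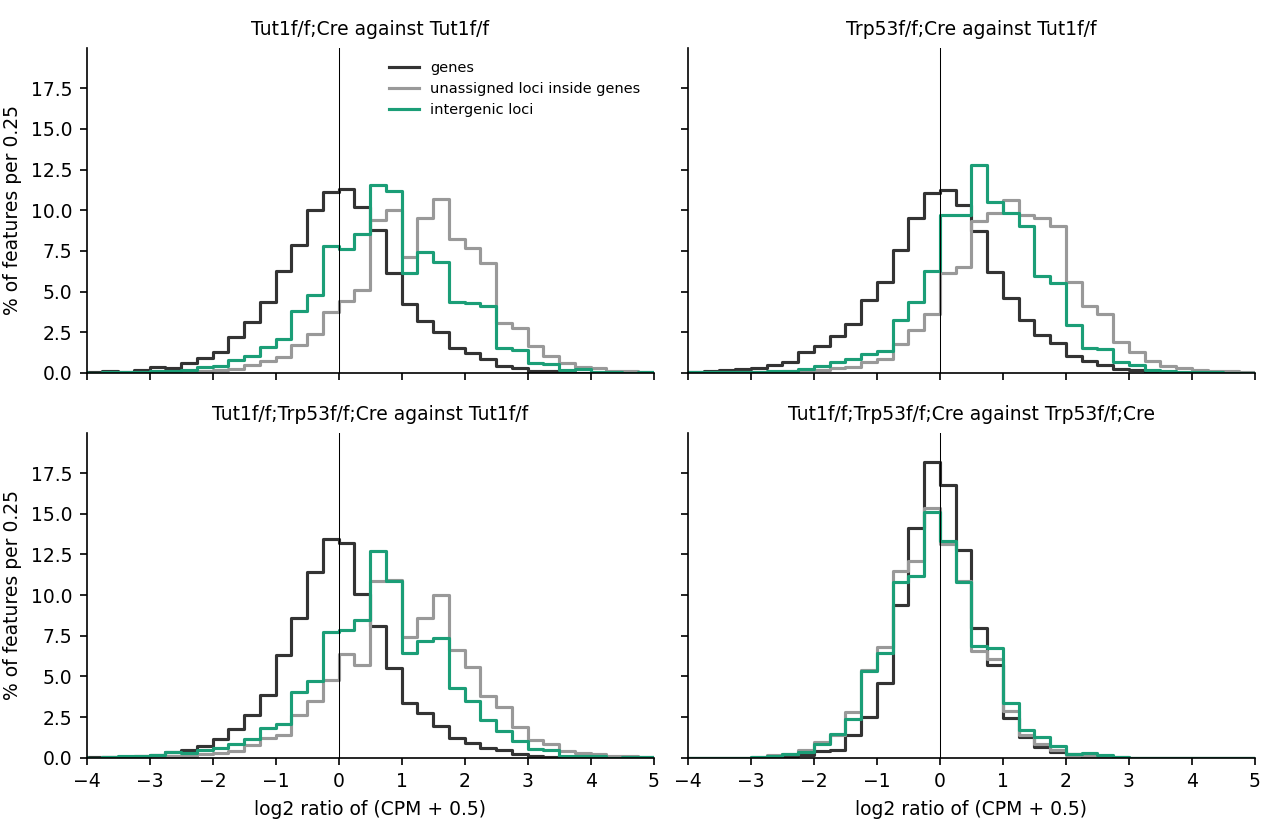
Distribution of log2 ratios between 2 libraries (x axis, 0.5 CPM added, classes of 0.25; y axis, percent of features) for genes, unassigned loci inside genes and intergenic loci with 10 or more reads. The intergenic loci have medians of 0.73, 0.74 and 0.64 against the control and of -0.0898 in the comparison of the double-labelled with the Trp53-labelled library.

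The median differed with segment length. Loci whose longest segment was 500 bases or more had a median log2 ratio of 0.99 in Tut1f/f;Cre against the control, and loci with shorter segments one of 0.33. In finer classes it went from 0.32 under 300 bases to 0.45, 0.71, 1.05 and 1.07 in the classes divided at 500, 1000 and 2000 bases. The Trp53-labelled library gave 0.87 and 0.58, and the double-labelled library 0.80 and 0.51. By position, loci 1 to 5 kb past a 3′ end had a median of 0.87 in Tut1f/f;Cre and those as far from a 5′ end 0.63, but within 1000 bases the medians were 0.58 at a 3′ end and 0.63 at a 5′ end. In the Trp53-labelled library the classes from 1 to 5 kb gave 0.83 and 0.81, and in the double-labelled library 0.74 and 0.64. Where both a locus and its nearest gene had 50 or more reads (621 loci), Pearson's r of their log2 ratios to the control was -0.0063, -0.0015 and -9.55e-06 in the 3 comparisons, and Spearman's rank coefficient -0.015, 0.0074 and -0.018. The locus was above its gene in 66.3%, 72.1% and 70.5% of these pairs. Among libraries with Cre mRNA, Pearson's r was 0.10 for the double-labelled against the Trp53-labelled library and 0.06 for it against Tut1f/f;Cre. For Tut1f/f;Cre against the Trp53-labelled library it was 0.16, with Spearman's coefficients of 0.11, 0.04 and 0.12 in these 3 comparisons. All these points share libraries and depth, and the coefficients are descriptions.

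The highest ratio to the control among loci with 100 or more reads in the pair was at chr9:32036000-32036999. It had 5 reads in the control, 163 in Tut1f/f;Cre, 132 in the Trp53-labelled and 140 in the double-labelled library. All libraries with Cre mRNA were high there, by log2 ratios of 5.43 (4.18 to 7.07), 4.94 (3.68 to 6.59) and 5.22 (3.96 to 6.86). RefSeq places this bin within Arhgap32, while the nearest GENCODE gene was the pseudogene Gm47481 at 7386 bases. Another of the highest, chr10:117336000-117336999, lay 7674 bases past the 3′ end of Cpsf6, a subunit of the factor that selects mRNA cleavage sites. It had 7, 135, 126 and 119 reads, with ratios of 4.67 (3.59 to 6.01), 4.39 (3.30 to 5.73) and 4.50 (3.41 to 5.84). Cpsf6 itself had 343, 241, 330 and 217 reads, or 86.0, 79.9, 96.3 and 72.3 CPM. At chr1:120093000-120093999, inside the RefSeq gene Gm41938, there were 6, 45, 132 and 87 reads, highest in the Trp53-labelled library (4.68, 3.52 to 6.15).

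Among the autosomal loci lowest against the control, chr16:17222000-17222999, 8018 bases past the 3′ end of Rimbp3, had 2234, 89, 163 and 61 reads. The control stood alone, and the ratios were -4.25 (-4.57 to -3.94), -3.56 (-3.80 to -3.33) and -4.79 (-5.18 to -4.42). Its only isoform had a segment of 210 bases, and Rimbp3 had 0 reads in all libraries. The bin chr16:61056000-61056999 near the pseudogene Gm17065 had 121, 3, 11 and 1 reads. That at chr4:19134000-19134999, near Cnbd1 and in the RefSeq gene Gm42258, had 107, 7, 3 and 3. At both the libraries with Cre mRNA were far below the control, with ratios between -6.51 and -3.24.

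Chromosome Y held 7 loci, with 1562 reads in the control, 19 in Tut1f/f;Cre, 52 in the Trp53-labelled and 281 in the double-labelled library. Of these 6 had Mid1-ps1, a pseudogene, as their nearest gene. The bin chrY:90738000-90738999 had 359, 0, 1 and 87 reads, and the 95% interval of the log2 ratio of Tut1f/f;Cre to the control lay below -6.19. Its neighbour chrY:90739000-90739999 had 672, 2, 11 and 67 reads, and chrY:90737000-90737999 had 481, 7, 18 and 114. Libraries with reads from Y-linked genes were high at these 3 bins and those with Xist reads low. The double-labelled library was also below the control at all 3, by ratios of -1.64 (-1.99 to -1.29), -2.92 (-3.30 to -2.55) and -1.67 (-1.98 to -1.37), while Ddx3y, Kdm5d, Eif2s3y and Uty had 66, 96, 60 and 42 reads in it against 85, 102, 155 and 28. The other 3 bins near Mid1-ps1 departed from this pattern, since the double-labelled library was not high there. They were chrY:90735000-90735999 with 23, 8, 18 and 2 reads, chrY:90742000-90742999 with 12, 0, 0 and 0, and chrY:90743000-90743999 with 9, 2, 2 and 1. The bin chrY:1092000-1092999, 3862 bases from GENCODE Uty and overlapping the RefSeq model of that gene, had 6, 0, 2 and 10 reads.

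Loci often lay in rows. With gaps of at most 5 kb between starts, the 7274 loci formed 5645 rows, of which 955 had 2 or more loci (2584 loci, 35.5%) and 80 had 5 or more. The longest, chr11:27985000-28024999, had 17 loci and no gene nearer than the processed pseudogene Gm12080 at 21036 bases. It held 165 reads in the control, 595 in Tut1f/f;Cre, 369 in the Trp53-labelled and 485 in the double-labelled library. The row was chosen after its values were seen. Against the control 16 of its 17 loci had a log2 ratio above 0 in Tut1f/f;Cre, as did 76.7% of all intergenic loci, and the sums had ratios of 2.25 (2.002 to 2.51), 1.38 (1.11 to 1.65) and 1.96 (1.71 to 2.23). The most-read bin of the row, chr11:27995000-27995999, had 11, 189, 99 and 177 reads. Here the libraries labelled for Tut1 deletion were both above the Trp53-labelled library, by 1.12 (0.76 to 1.48) and 1.03 (0.67 to 1.40). The bin chr11:27978000-27978999 just outside the row had 7, 76, 35 and 71 reads and the same order.

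A second row, chr2:112173000-112201999, held 16 loci near the olfactory receptor pseudogene Olfr1319-ps1, with 112, 301, 100 and 84 reads. It was high in Tut1f/f;Cre alone (ratio to the control 1.83, 1.51 to 2.15), while the double-labelled library lay at -0.01 (-0.43 to 0.42). Since Tut1f/f;Cre held 301 of its 597 reads, its loci reached the read threshold largely through that library, and these ratios support no difference on their own. A row of 13 loci, chr3:95691000-95720999, lay near Adamtsl4 and Ecm1, both genes of extracellular matrix proteins, with 44, 176, 174 and 162 reads. A row of 9, chr3:95633000-95656999, lay near Ensa and Mcl1, the latter a survival factor of the BCL2 family, with 41, 127, 113 and 117. In both the control was lowest, and the intervals of the ratio of the double-labelled to the Trp53-labelled library included no change, at 0.09 (-0.23 to 0.40) and 0.24 (-0.15 to 0.63). Other rows excluded no change in that comparison. A row of 12 near Gm10062 and Gm43143 had 45, 155, 196 and 133 reads (-0.37, -0.70 to -0.04), and one of 11 near Gm9710 and the zinc finger gene Zfp655 had 68, 223, 145 and 195 (0.62, 0.30 to 0.94). A row of 10 beside Gpm6a, a membrane glycoprotein of neurons, had 53, 92, 144 and 85 reads (-0.57, -0.97 to -0.17).

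Tut1 status differed by label in a pair of comparisons that share no library, Tut1f/f;Cre against the control and the double-labelled against the Trp53-labelled library. The first also differs in Cre mRNA. The sex of the cells differs in both but the opposite way, since the library labelled for Tut1 deletion held the Xist reads in the first and the Y-linked reads in the second. Within each comparison sex and Tut1 status cannot be told apart. The second counted 175 loci higher and 223 lower (all features 2.08% and 3.31%), with a median log2 ratio of -0.0898 over loci, -0.02 over genes and 0 over loci when all reads set the scale. On that scale the split turned, with 210 loci higher and 150 lower. Loci higher in both numbered 83, which is 5.34% of those higher in the first and 47.4% of those higher in the second. Over all features these shares were 2.32% and 37.4%, for unassigned loci inside genes 2.13% and 48.0%, and for genes 2.37% and 7.68%. There were 21 lower in both, which is 14% of those lower in the first and 9.42% of those lower in the second (all features 5.33% and 4.18%). Another 37 were higher in the first and lower in the second, or 2.38% and 16.6% (all features 3.26% and 33.0%), and 3 were the other way, or 2% and 1.71% (all features 11.3% and 14.1%, genes alone 15.3% and 50.2%). In the remaining comparisons among libraries with Cre mRNA, 92 loci were higher and 206 lower in the double-labelled library than in Tut1f/f;Cre (all features 1.05% and 3.8%), or 142 and 154 when all reads set the scale, and 288 were higher and 170 lower in Tut1f/f;Cre than in the Trp53-labelled library (3.25% and 1.38%). Both splits turned with segment length. Loci with segments of 500 bases or more gave 51 higher and 179 lower in the former comparison and 248 and 79 in the latter, and the rest gave 41 and 27, and 40 and 91. Among loci with 50 or more reads the latter split was 63 and 59.

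The lowest ratio of the double-labelled to the Trp53-labelled library was at chr2:13507000-13507999. It had 298 reads in the control, 155 in Tut1f/f;Cre, 222 in the Trp53-labelled and 12 in the double-labelled library. Only the last was low, by -4.02 (-4.99 to -3.19) against the Trp53-labelled library and -3.68 (-4.67 to -2.84) against Tut1f/f;Cre. The bin lay 1015 bases past the GENCODE 3′ end of Trdmt1, a tRNA cytosine methyltransferase, inside the RefSeq model of that gene. The gene itself had 22, 16, 9 and 18 reads. Next came chr7:128037000-128037999 near Gm9299, with 85, 67, 113 and 32 reads, and chr14:49971000-49971999 near the olfactory receptor gene Olfr724, with 200, 63, 123 and 36. The lowest against Tut1f/f;Cre included chr3:11013000-11013999, near Gm21631 and in the RefSeq gene Gm8910, with 191, 82, 98 and 35 reads. In the other direction, chr13:43339000-43339999, 25497 bases before the 5′ end of Sirt5, a mitochondrial deacylase gene, had 38, 86, 80 and 158 reads and was higher in the double-labelled than in the Trp53-labelled library (1.17, 0.77 to 1.58).

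Tut1f/f;Cre and the Trp53-labelled library differed most, beside the loci already given, at 3 bins. At chr1:8122000-8122999, in the RefSeq gene Gm39589, there were 76, 153, 73 and 77 reads, and Tut1f/f;Cre stood above the others (1.25 against the Trp53-labelled library, 0.84 to 1.67). At chr4:117157000-117157999, 310 bases from the microRNA gene Gm22398, there were 36, 31, 90 and 43 reads. At chr2:118554000-118554999, 4313 bases before the 5′ end of Bmf, which encodes a cell death protein of the BCL2 family, there were 53, 30, 76 and 65. In both of the last the Trp53-labelled library was highest, and Tut1f/f;Cre was below it by -1.35 (-1.99 to -0.75) and -1.16 (-1.82 to -0.53).

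A few well-read loci were far from any gene, among them chr1:8122000-8122999 at 238476 bases from Sntg1. The most remote with 100 or more reads, chr8:101105000-101105999, lay 378645 bases from Gm39232 and had 61, 41, 47 and 27 reads. The bin chr1:28341000-28341999, 227919 bases from Gm38089, had 72, 40, 84 and 49, and chrX:63544000-63544999, 188352 bases from Gm14657, had 119, 91, 117 and 72. At chr16:39676000-39676999, 187766 bases from Gm36903, there were 38, 36, 45 and 36 reads. The control was not the lowest library in CPM at the first 3 of these last 4 but was at the fourth, and their ratios to the control ran from -0.77 to 0.46. The last 3 had segments of 206, 217 and 203 bases.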

How the data were processed

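Neural stem cells of 4 groups were profiled by long-read cDNA sequencing, 1 library per group. The authors deposited 1 table of whole-number read counts per isoform and library, not normalized, with mm10 named per the labels. The study's methods name minimap2 and FLAIR for long reads of embryonic pallium, and whether these tools made this table, and with which filters, is not given in the sources used here. Members and lists were chosen with earlier results of these data known.

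Genes came from GENCODE M21 (GRCm38) and from RefSeq (GRCm38.p6). Isoform counts were added up for each gene, and reads that named no gene (17.2% to 30.2% of a library) stayed out of the scaling. TMM factors (edgeR 4.0.16, R 4.3.3, 10596 genes after its default filter, each library its own group) were 0.940, 1.02, 0.998 and 1.05. A ratio of scaled CPM was counted as different at 2-fold or more with an exact conditional 95% interval that excluded no change. There was no test and no p-value. Python 3.11.15, numpy 2.4.6, pandas 2.3.3, scipy 1.17.1, statsmodels 0.14.6 and matplotlib 3.10.9 were used. The ratio rule was run on simulated Poisson counts without PCR copies or variation between cultures, so that run cannot check it for these libraries.

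Loci named were the 10 with most reads, the 3 highest and 3 lowest ratios of each comparison among loci counted as different with 100 or more reads in the pair, and up to 5 each on chromosome Y and farthest from genes. Rows of loci, promoter windows and 2 further bins on chromosome Y were chosen after their values were seen. Loci on chromosome 18 were counted and not named. Alternatives were other scalings (all reads, DESeq2 1.42.0 size factors), read minimums, bins, pseudocounts and gene extensions. Sequence features of whole bins were not analysed here, since the only sequences used were those of RefSeq promoter windows.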

Additional observations from a re-analysis of the deposited data

Results flagged for a closer look

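The median log2 ratio over loci was 0.73 in Tut1f/f;Cre against the control and -0.0898 in the double-labelled against the Trp53-labelled library, so that the comparisons between libraries that differ in Tut1 by label had medians of opposite sign. The first comparison also differs in Cre mRNA, and the sex of the cells differs in both, the opposite way (Xist reads 0 in the control and 44 in Tut1f/f;Cre, 49 in the Trp53-labelled and 0 in the double-labelled library). The difference between them was not tested, and the second median was 0 when all reads set the scale. Genes had medians of 0.02 and -0.02 and unassigned loci inside genes of 1.30 and -0.14, also opposite in sign. Loci high in the 3 libraries with Cre mRNA reached the 10-read threshold more easily, so the first median supports no difference on its own. Intergenic isoforms with fewer than 10 reads, which are no members, took 0.487% of reads in Tut1f/f;Cre, 0.419% in the Trp53-labelled and 0.447% in the double-labelled library, above 0.225% in the control.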

How the results depend on the processing

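No paired analysis was possible because each group had 1 library. For the same reason no library was left out, and depth limits most loci, whose median was 21 reads. The planned shares of A or T runs, AATAAA, GC and repeats in the bins were not run, for want of the sequence of whole bins. With 50 or more reads per locus, 1487 loci remained, 868 of them within 5 kb of a gene end. The loci counted as different were then 496, 594 and 548 against the control, 133 for the double-labelled against the Trp53-labelled library, 97 for the double-labelled against Tut1f/f;Cre and 122 for Tut1f/f;Cre against the Trp53-labelled library. Extending genes by 5 kb left 3282 loci, and keeping loci with segments of 500 bases or more, an alternative chosen after seeing the data, left 4649. The shares of library reads (control, Tut1f/f;Cre, Trp53-labelled, double-labelled) were 3.49%, 2.44%, 2.57% and 2.14% with 50 or more reads, 3.93%, 3.25%, 3.33% and 2.93% with isoforms of any count in bins of 10 or more reads, 1.15%, 1.18%, 1.19% and 1.16% with extended genes, and 1.66%, 2.11%, 2.20% and 2.15% without the 10 loci with most reads. With extended genes or without the 10 loci the control was no longer highest. Median log2 ratios over loci against the control were 0.58, 0.58 and 0.58 when scaled by all reads and 0.92, 0.96 and 0.87 with 0.1 CPM added, and with DESeq2 size factors those of the last 2 were 0.72 and 0.63. The double-labelled library had a median of 0 against the Trp53-labelled library when scaled by all reads, and against Tut1f/f;Cre one of 0.0552 when scaled by all reads and 0.0059 with 0.1 CPM added. The causes of these changes were not tested beyond the fewer loci or reads each setting keeps. Total counts of different loci stayed within 1.5 times under the other scalings, the 1.5-fold threshold, bins of any count, and loci in no RefSeq gene or with long segments, the last 2 chosen after seeing the data. Counts in 1 direction moved further. Loci lower than the control went from 150, 148 and 208 to 79, 76 and 125 with long segments and to 93, 96 and 134 in no RefSeq gene. With long segments the loci lower in Tut1f/f;Cre than in the Trp53-labelled library went from 170 to 79, and those higher in the double-labelled library than in Tut1f/f;Cre from 92 to 51.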
